A study of Mus musculus with 6 samples.

Results

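Genes that protect red cell precursors from oxidants were followed in bone marrow (BM) erythroblasts recovering from hemolytic anemia. They were Prdx1, Prdx2, Cat, Gpx1, Gpx4, Sod1, Sod2, Gclc, Nqo1 and Nfe2l2, and they were chosen by name as 10 of the 34761 gene names on the array. All 10 were found, on 12 probes that are no control spots, and all 12 probes were well above background on every array where they were used. RNA came from 3 P38α+/− and 3 P38α−/− mice, each on 1 Agilent whole mouse genome array. P38α+/− mice were Mx1-Cre/P38α fl/+ and P38α−/− mice were Mx1-Cre/P38α fl/fl, on a C57Bl/6 background. Mice of both genotypes therefore carried Cre and at least 1 floxed allele, and no group without Cre or without a floxed allele was analysed here. Cre under the Mx1 promoter is switched on by interferon and is not limited to red cell precursors. It was induced at an age of 6 to 8 weeks with PolyIC, given 3 times at 300 µg, and the mice then rested for 6 weeks. Mice of both genotypes then received phenylhydrazine (PHZ, 100 mg per kg), an oxidant that destroys circulating red cells, and CD71highTer119+ erythroblasts were sorted on day 4 of recovery. No mice without PHZ were analysed here, so the data compare genotypes and not the response to the oxidant.

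An erythroblast fills with hemoglobin, and hemoglobin iron releases superoxide as it oxidises. The superoxide dismutases turn superoxide into hydrogen peroxide, Sod1 in the cytosol and Sod2 in mitochondria. Peroxiredoxins, catalase and glutathione peroxidases then remove the peroxide, and Prdx2 is among the most abundant proteins of the mature red cell. Glutathione is made by a pathway whose rate-limiting step belongs to the enzyme with Gclc as its catalytic subunit. Nqo1 reduces quinones and is a classic target of Nfe2l2 (NRF2), the transcription factor that binds antioxidant response elements with a small Maf partner.

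The probes of 3 members are shown as examples of what the array reads, because they lie in coding sequence and because the Cat and Gpx4 probes span splice junctions, so that they match spliced RNA over their whole length. The deposited files place the Gpx1 probe at chr9:108242276-108242335 (plus strand, mm9). The Cat probe shown, the dimmer of its pair, stretches over chr2:103297086-103300428 (minus strand), and the Gpx4 probe over chr10:79518691-79518842 (plus strand). Each has 60 bases, printed 5′ to 3′ in lower case.
Gpx1: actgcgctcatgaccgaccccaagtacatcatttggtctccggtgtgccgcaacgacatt
Cat: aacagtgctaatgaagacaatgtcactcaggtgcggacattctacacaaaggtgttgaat
Gpx4: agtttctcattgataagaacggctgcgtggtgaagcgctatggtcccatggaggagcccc
The remaining probes were placed by the same files at chr4:116371818-116371877 and chr4:116372422-116372481 (Prdx1), chr8:87498153-87498212 (Prdx2) and chr2:103294487-103294546 (brighter Cat probe). Those of Sod1, Sod2 and Gclc lie at chr16:90226509-90226568, chr17:13208074-13208133 and chr9:77641296-77641355. The Nqo1 probe lies at chr8:109912440-109912499 and the Nfe2l2 probe at chr2:75513771-75513830.

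Because Nfe2l2 is itself a member, the promoter windows were searched for the core letters of the antioxidant response element, TGACNNNGC, on both strands. RefSeq windows of 300 bases around transcript starts (GRCm38.p6) were matched for 9 of the 10 members, all but Gclc. These 9 have 12 windows in all, since Gpx4 has several starts. The letters were found in 3 of the 12, those of Nfe2l2, Prdx1 and Sod1, and in 12.4% of all 32851 windows of that length. A looser form, TGANNNNGC, was found in the same 3 windows and in 41.3% of all windows. The windows of Nqo1, Gpx4, Sod2, Cat, Gpx1 and Prdx2 held neither form. Sequence outside these windows was not searched, so elements further from the starts would have been missed. The matches are shown with up to 10 bases on each side, on the strand of the gene, with the matched letters in capitals. For Prdx1 and Sod1 the element reads on the other strand.
Nfe2l2: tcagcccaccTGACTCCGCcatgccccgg
Prdx1: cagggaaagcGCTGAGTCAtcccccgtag
Sod1: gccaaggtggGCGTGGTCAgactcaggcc
They lie at chr2:75704885-75704913, chr4:116685456-116685484 and chr16:90220696-90220724. The Prdx1 stretch also holds TGANTCA, the letters of an AP-1 site, which occur in 7.81% of all windows. A match describes letters in a window and not a bound site.

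Values below are log2 signals minus the 75th percentile of the same array, with the percentile computed from those 15150 probes that passed the scanner's background test on each of the 6 arrays, so a value of 0 is a signal equal to that percentile. They are listed as P38α+/− replicates 1, 2 and 3 and then P38α−/− replicates 1, 2 and 3. Levels were not compared between probes, since probes differ in how brightly they read. Differences are P38α−/− minus P38α+/− on this log2 scale and were tested with limma, with Benjamini-Hochberg adjustment over all 18547 probes tested. A gene was called where the adjusted p was 0.05 or less and the fold was 2 or more. The median difference over all tested probes was −0.16, so a difference of −0.16 is that of the median probe. Bulk RNA cannot tell fewer cells of a type from less RNA per cell.

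The arrays differed in ways that bear on these values. Between 28.5% and 53.1% of probes were well above background, with both extremes in replicate 1 arrays. All 12 erythroid marker genes were well above background on all 6 arrays, so the sorted cells carried the RNA of their label. All 12 neutrophil markers were too, and 10 of them were lower in every P38α−/− array than in every P38α+/− array. That pattern was shown by 19.9% of all tested genes. Mapk14, the gene of P38α, was not lower in the arrays labelled P38α−/−. Its brighter probe read 0.33, 0.59 and 0.61 against 0.77, 1.19 and 1.21 (difference 0.54, adjusted p = 0.185 from limma), and its dimmer probe differed by 0.01 (adjusted p = 0.991 from limma). The files do not say which part of the gene was deleted, so it is not known whether these probes check the labels, and genotypes below are those of the labels. The study reported, by genomic PCR and immunoblot, that PolyIC excised the locus and removed P38α protein from sorted P38α−/− erythroblasts. It does not say whether those mice were the ones on the arrays.

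None of the 10 members was called different between the genotypes, against 0.178% of all 14025 tested genes (25 genes). At an unadjusted p of at most 0.05, limma gave 2 members, Gpx4 and Nqo1, both higher in P38α−/− erythroblasts, and 0 lower. Over all tested genes, 4.84% were higher and 15.2% lower at that level, 20% in either direction. The methods' t-test gave 1 member at that level, Nqo1, and 0 after adjustment. Of all 14025 tested genes, that t-test gave 743 higher and 1574 lower at that level, and 5 after adjustment. Judged by the brightest tested probe of each gene, 7 members were higher and 3 lower in P38α−/− erythroblasts on this scale, while all 10 were higher under 2 other scalings given below. Of all tested genes 65.7% were lower. The median difference of the members was 0.06, against −0.14 over all tested genes, and 9 of 10 lay above the median probe, against 7325 of 14025 genes. The remaining 1 member, Nfe2l2, lay below it, as 47.8% of all tested genes did. These counts depended on the scaling. With the authors' normalized values, where the median probe differed by 0.06, Prdx1, Prdx2, Sod1, Gclc and Nfe2l2 lay below it. Under quantile normalization, also with a median probe of 0.06, Prdx2, Sod1, Gclc and Nfe2l2 did. Nqo1 was the single member whose genotypes did not overlap, with all P38α−/− arrays above all P38α+/− arrays, a pattern shown by 7.44% of all tested genes, or by 27.3% in either direction. No member was lower in all P38α−/− arrays on this scale, as 19.9% of all tested genes were.

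**Figure D1:**
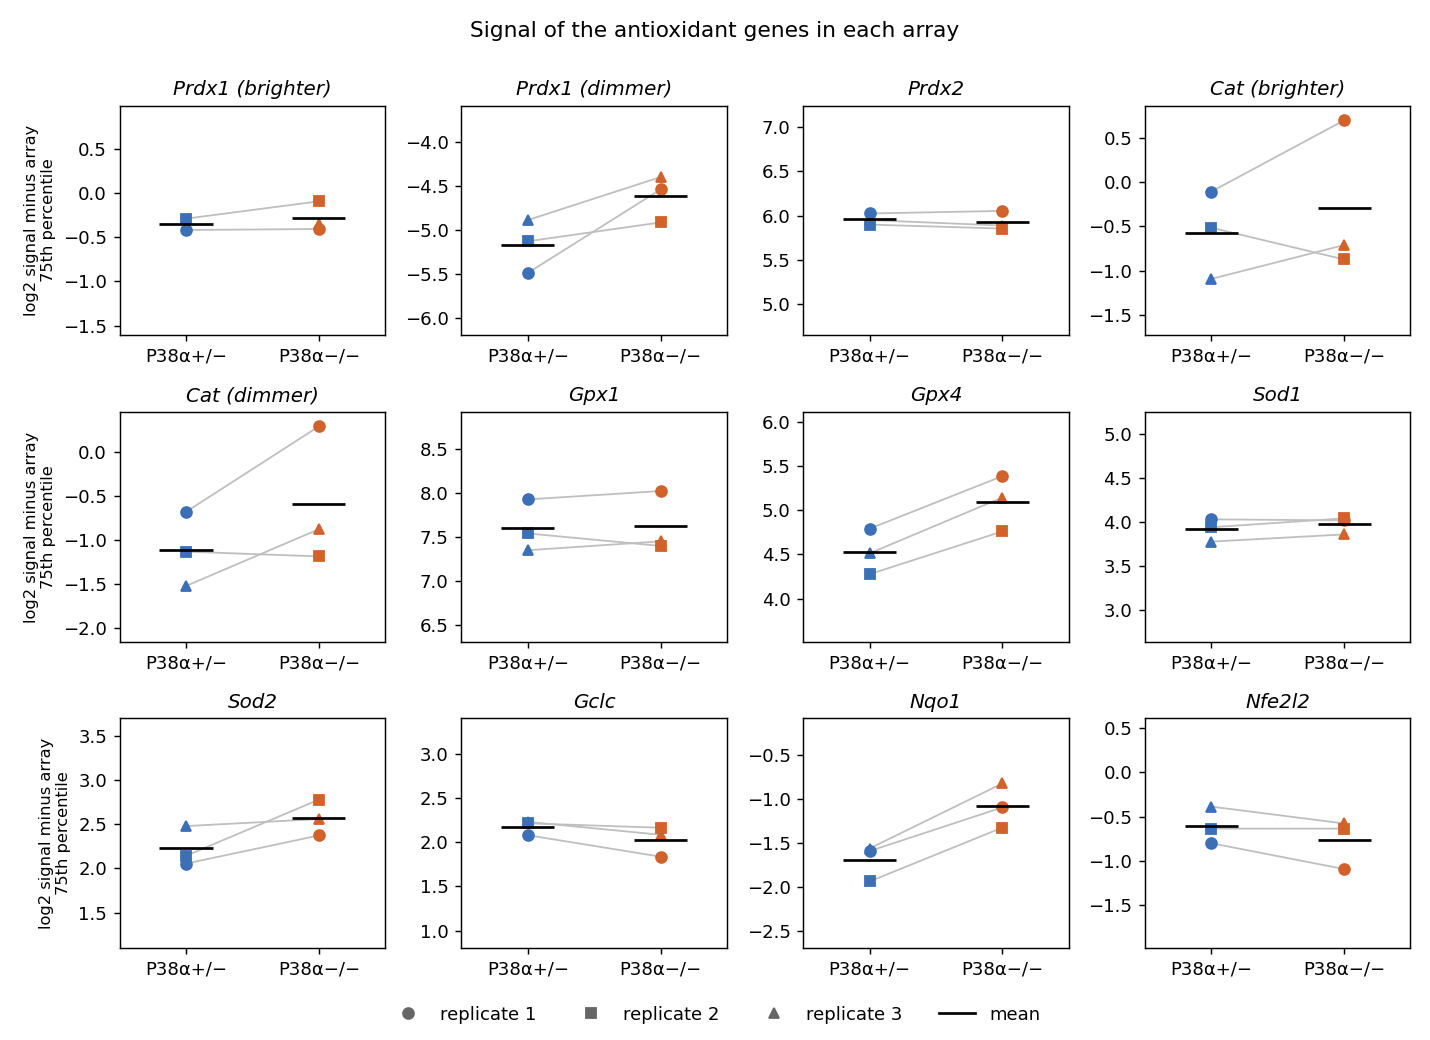
Log2 signal minus the array's 75th percentile (vertical axis) for each of the 12 probes in each array, P38α+/− in blue and P38α−/− in orange, with lines joining arrays of the same replicate number and black bars at the means. Every panel spans the same range of log2 units, so slopes can be compared. All 3 lines slope upward for Gpx4 and Nqo1, Prdx2, Gpx1 and Sod1 are nearly level, and the 2 replicate 1 arrays stand above the others for Cat.

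The enzymes that remove peroxide were read by 7 probes of 5 genes. Prdx2, the cytosolic peroxiredoxin that dominates in red cells, read 6.02, 5.90 and 5.95 in P38α+/− erythroblasts. In P38α−/− erythroblasts it read 6.05, 5.85 and 5.89. The values interleave, and the whole spread over the 6 arrays was smaller than for any other member. The difference was −0.03, with a 95% confidence interval from −0.37 to 0.32 (standard error 0.14, adjusted p = 0.941 from limma).

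Prdx1, the other cytosolic peroxiredoxin, gave different readings at its 2 probes. The brighter probe read −0.42 and −0.29 in P38α+/− replicates 1 and 2 and −0.41, −0.09 and −0.35 in P38α−/− erythroblasts. Its spot on P38α+/− replicate 3 was left out because the scanner software marked the local background as an outlier. The genotypes overlapped, and the difference, which rests on the other 5 arrays, was 0.07 (95% confidence interval −0.40 to 0.55, adjusted p = 0.866 from limma). With that spot kept the difference was −0.00. The files also assign this probe to predicted transcripts besides Prdx1 itself. The dimmer probe read −5.49, −5.13 and −4.89 in P38α+/− erythroblasts, close to background, and −4.54, −4.92 and −4.40 in P38α−/− erythroblasts. It was higher in all 3 replicate pairs, but P38α−/− replicate 2 lay below P38α+/− replicate 3, and the difference of 0.55 was not called (95% confidence interval 0.01 to 1.09, adjusted p = 0.235 from limma). Its size depended on the processing, from 0.22 with the normexp background to 1.40 with quantile normalization and 1.49 with the authors' normalized values. The 2 probes of Prdx1 differ in the size of their difference.

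Cat, catalase, varied more between arrays of 1 genotype than any other member. Its brighter probe read −0.11, −0.51 and −1.09 in P38α+/− erythroblasts and 0.70, −0.87 and −0.71 in P38α−/− erythroblasts. Its dimmer probe, the one printed above, read −0.68, −1.13 and −1.52 and then 0.29, −1.19 and −0.88. Both probes were highest in replicate 1 of each genotype, and P38α−/− replicate 1 was the highest array for both. The differences were 0.28 (95% confidence interval −0.87 to 1.42, adjusted p = 0.782) and 0.52 (−0.50 to 1.54, adjusted p = 0.524), both from limma. Without P38α−/− replicate 1 the brighter probe differed by −0.22, so the direction for Cat rests on that array.

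Gpx1, the main selenium-dependent glutathione peroxidase of red cells, read 7.93, 7.54 and 7.35 in P38α+/− erythroblasts. In P38α−/− erythroblasts it read 8.02, 7.40 and 7.45. As for Cat, replicate 1 was the highest array of each genotype. The summed signal of the 12 erythroid markers was also highest in those arrays, at 1304 and 1341 times the 75th percentile signal against 790.2 to 859.7 in the other 4 arrays, and its part in the pattern was not tested. The genotypes overlapped, with a difference of 0.02 (95% confidence interval −0.57 to 0.61, adjusted p = 0.977 from limma).

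Gpx4, the glutathione peroxidase that reduces lipid peroxides within membranes, read 4.79, 4.28 and 4.51 in P38α+/− erythroblasts. In P38α−/− erythroblasts it read 5.39, 4.76 and 5.14. The lowest P38α−/− array lay just below the highest P38α+/− array, so the genotypes overlapped. Within replicate pairs, Gpx4 was higher in P38α−/− by 0.60, 0.48 and 0.63. The difference was 0.57, a fold of 1.49 (standard error 0.23, 95% confidence interval 0.02 to 1.12). It had an unadjusted p of 0.0438 and an adjusted p of 0.226 from limma, and 0.0883 with the replicate number as a block, so it was not called.

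The superoxide dismutases Sod1 and Sod2 differed in how much their signal moved. Sod1, the copper and zinc enzyme of the cytosol, read 4.03, 3.94 and 3.78 in P38α+/− erythroblasts and 4.02, 4.04 and 3.86 in P38α−/− erythroblasts. The difference was 0.06 (95% confidence interval −0.31 to 0.42, adjusted p = 0.866 from limma), smaller than the spread within either genotype. Sod2, the manganese enzyme of mitochondria, read 2.05, 2.14 and 2.48 and then 2.37, 2.78 and 2.56. It was higher in all 3 replicate pairs, by 0.32, 0.64 and 0.08, but the genotypes overlapped and the difference of 0.34 was not called (95% confidence interval −0.12 to 0.80, adjusted p = 0.350 from limma). The Sod2 locus lies on chromosome 17, as does Mapk14, and whether this bears on the Sod2 difference was not tested.

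Gclc read 2.08, 2.21 and 2.23 in P38α+/− erythroblasts and 1.84, 2.16 and 2.08 in P38α−/− erythroblasts. It was lower in all 3 replicate pairs, and the mean difference was −0.15, which is 0.01 above that of the median probe (95% confidence interval −0.53 to 0.23, adjusted p = 0.641 from limma).

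Nqo1 read −1.59, −1.93 and −1.56 in P38α+/− erythroblasts. In P38α−/− erythroblasts it read −1.10, −1.32 and −0.82. The genotypes did not overlap, and P38α−/− was the higher one. An exact two-sided permutation test gave p = 0.10, below which a design of 3 against 3 cannot go. Within replicate pairs the differences were 0.49, 0.61 and 0.74. The mean difference was 0.61, a fold of 1.53 and the largest among the members (standard error 0.20, 95% confidence interval 0.14 to 1.09). The unadjusted p was 0.0196 and the adjusted p 0.168 from limma, or 0.0867 with the replicate number as a block, so Nqo1 was not called.

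Nfe2l2 read −0.80, −0.64 and −0.39 in P38α+/− erythroblasts and −1.09, −0.64 and −0.58 in P38α−/− erythroblasts. The genotypes overlapped and the difference of −0.16 was that of the median probe (95% confidence interval −0.66 to 0.34, adjusted p = 0.702 from limma). Its RNA level says nothing of its protein, which is controlled mainly through degradation by Keap1.

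**Figure D2:**
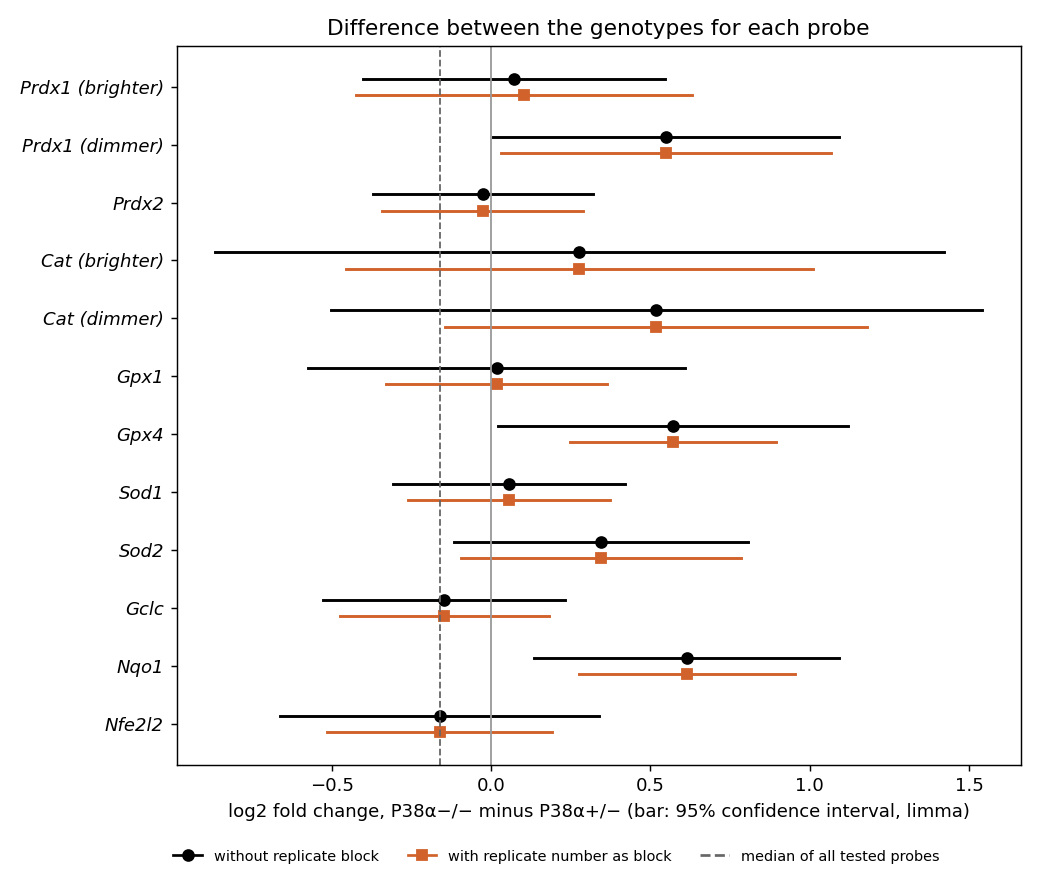
Log2 fold change of each probe, P38α−/− minus P38α+/− (horizontal axis), with its 95% confidence interval from limma, without (black circles) and with (orange squares) the replicate number as a block; the dashed line is the median of all tested probes. The intervals of Gpx4, Nqo1 and the dimmer Prdx1 probe lie above 0 before adjustment, and that of Cat is the widest without the block.

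Of the 9 members with all 3 replicate pairs, 5 differed in 1 direction in every pair. Gpx4, Sod2 and Nqo1 were higher in all 3, and Gclc and Nfe2l2 lower in all 3, although Nfe2l2 differed by −0.00045 in the second pair. Over all tested genes, 17.3% were higher and 37.5% lower in all 3 pairs. When the pairing was entered as a replicate block, 58 genes were called over the whole array (0.414%), and again 0 members. At an unadjusted p of at most 0.05 the block gave 2 members, Gpx4 and Nqo1, as higher and 0 as lower, against 6.97% and 20.3% of all tested genes. On this scale the 95% intervals without the block differed in width. At the brightest probes of Prdx1, Prdx2, Gpx1, Sod1, Gclc and Nfe2l2 they reached no further than −0.66 and 0.61 on the log2 scale, whereas that of Cat reached 1.42. Other scalings moved these limits, and with the 75th percentile over all probes the difference itself was 0.74 for Prdx1.

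How the arrays were scaled moved every member, as it moved all genes. With the 75th percentile taken over all probes instead, the median of all tested probes moved from −0.16 to 0.32, all 10 members were higher in P38α−/− erythroblasts, and 6 of them did not overlap between genotypes, against 26.3% of all tested genes under that scaling. Those 6 were Prdx1, Prdx2, Gpx1, Gpx4, Sod1 and Nqo1. Centring on the spike-in spots made all 10 members higher as well, with a median probe of 0.20 and 0 members free of overlap. Under quantile normalization, the normexp background and the authors' own normalized values, Prdx2, Gclc and Nfe2l2 remained lower. Gpx4 and Nqo1 were the 2 members that lay higher without overlap under each of these 3, against 13.7%, 7.26% and 15% of all tested genes. Gclc lay lower without overlap with the authors' values, against 9.73% of all tested genes. Gpx4, Sod2 and Nqo1 were higher under every setting tried, with differences of 0.43 to 1.05, 0.24 to 0.83 and 0.49 to 1.10. Their adjusted p values from limma and the methods' t-test ran from 0.0845 to 1.00 for Gpx4, from 0.185 to 1.00 for Sod2 and from 0.0669 to 1.00 for Nqo1.

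**Figure D3:**
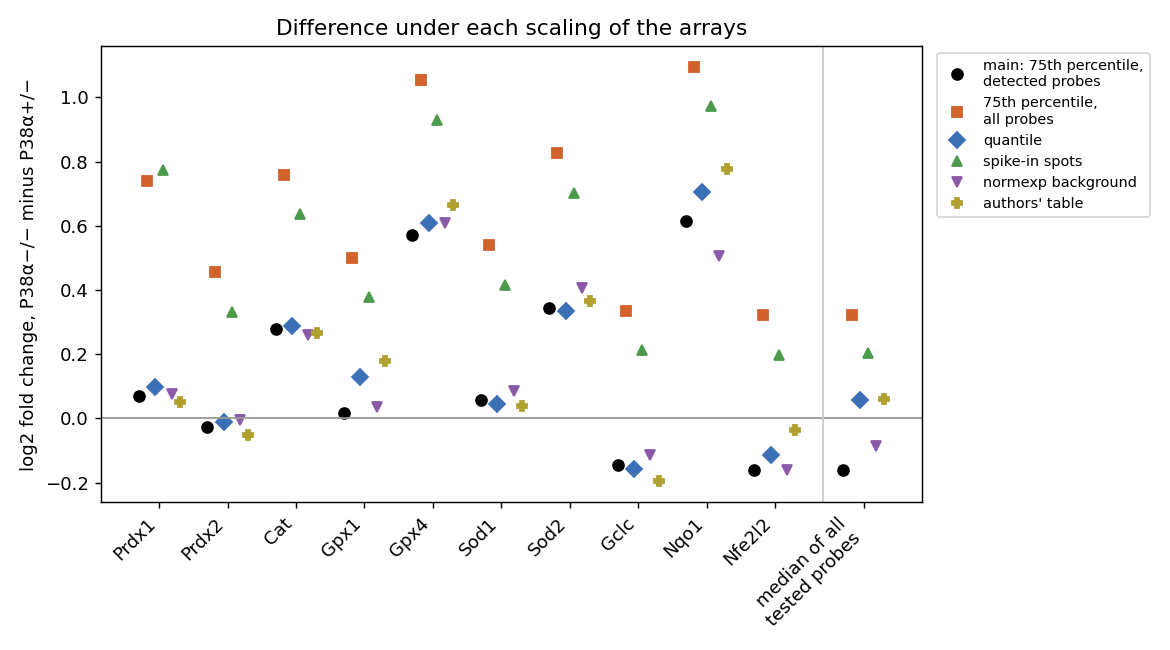
Log2 fold change, P38α−/− minus P38α+/− (vertical axis), of the brightest tested probe of each member under 6 ways of scaling or correcting the arrays, with the median of all tested probes at the right. The 75th percentile over all probes and the spike-in spots shift all genes upward together. Cat, Gpx1, Gpx4, Sod2 and Nqo1 lie above the median probe under each of the 6.

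The wider antioxidant pathways were described by 7 lists with 93 genes, 73 of them tested. Of these, 1 was called, Ggct, and it was lower (1 of 73 genes, against 0.178% of all tested genes). Ggct was tested only because it was well above background in P38α+/− erythroblasts, where it was higher, so its call is not independent of the filter, and with the filter on all 6 arrays or with no filter 0 pathway genes were called. The Ggct call was lost on leaving out any 1 array (adjusted p = 0.0510 to 0.236 from limma). At an unadjusted p of at most 0.05, 11 genes were higher and 10 lower, against 4.84% and 15.2% of all tested genes. All P38α−/− arrays lay above all P38α+/− arrays for 14 genes and below them for 11, against 7.44% and 19.9% of all tested genes, the shares against which the counts of each list below are also to be read. The median difference of the 73 was 0.07, and 58 lay above the median probe on this scale. With the authors' normalized values their median was 0.10, against 0.06 for all tested probes. With the replicate number as a block, Ggct was no longer called (adjusted p = 0.0576) and Glrx and Hmox1 were (both adjusted p = 0.0462 from limma). With the 75th percentile over all probes 8 genes were called, against 4.98% of all tested genes, and with array weights 4, against 2.94%.

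Of 18 tested genes for glutathione synthesis, recycling and use, 5 lay apart higher, 4 lay apart lower, and the median difference was 0.14. Ggct, which breaks down gamma-glutamyl dipeptides, read −5.10, −5.24 and −5.25 in P38α+/− erythroblasts. On the P38α−/− arrays its spot never passed the background test, and it read −7.34, −6.73 and −7.17. Measured against the dimmest signals still well above background, it was at least 2.03-fold lower on this scale. The adjusted p of 0.0402 from limma rests on P38α−/− signals that all failed the background test. The difference was −0.91 with quantile normalization, −0.58 in the authors' normalized table, and −0.36 after normexp background correction. Gstk1, the mitochondrial and peroxisomal glutathione S-transferase, had the largest positive difference of the list. It read −4.30, −4.88 and −4.78 and then −3.13, −3.34 and −3.50 (difference 1.33, standard error 0.21, adjusted p = 0.0695 from limma). Gstp1 and Gstt1, also glutathione S-transferases, lay apart higher by 1.08 and 1.16. Gsr and Mgst1 lay apart lower, with differences of −0.79 and −1.15. Their second probes, with −0.68 and −0.98, lay apart lower as well. Gstm1 had the largest negative difference, with −2.70, −1.45 and −3.61 and then −4.56, −4.51 and −5.42 (difference −2.24, adjusted p = 0.124 from limma). The files place that Gstm1 probe on chromosome 5 and its other probe, which differed by −1.58 and overlapped between genotypes, on chromosome 3, and the Gstm genes are similar in sequence, so its readings are uncertain as to the gene.

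Of 16 tested genes of the peroxiredoxin and thioredoxin system, 2 lay apart higher and 2 lower, with a median difference of 0.05. Glrx, the cytosolic glutaredoxin that removes glutathione from protein thiols, had the largest difference of any pathway gene in the upward direction. It read −2.71, −1.61 and −2.53 in P38α+/− erythroblasts and −0.54, 0.28 and −0.27 in P38α−/− erythroblasts (difference 2.10, standard error 0.36, adjusted p = 0.0762 from limma). Prdx5, the peroxiredoxin of mitochondria and peroxisomes, read 1.32, 2.15 and 0.78 and then 0.57, 0.36 and 0.12 (difference −1.06, adjusted p = 0.178 from limma). Its other probe differed by −0.95 and overlapped between genotypes. Prdx3, Prdx4 and Prdx6, the other peroxiredoxins listed, differed by −0.05, 0.17 and 0.06 at their brightest probes, each with overlapping genotypes. A second Prdx4 probe differed by −0.76, with the opposite sign and again with overlap, so the probes of Prdx4 disagree.

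Of 2 further genes for superoxide handling, 1 was tested, Ccs, the chaperone that loads copper into Sod1. It read 0.76, 0.63 and 1.03 in P38α+/− erythroblasts and 1.64, 1.66 and 1.74 in P38α−/− erythroblasts. The genotypes were far apart relative to their spread (difference 0.87, standard error 0.16), and the adjusted p was 0.0867 from limma. Sod1 itself differed by 0.06, as given above.

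Of 8 tested genes that supply NADPH, the reductant behind both glutathione and thioredoxin, 3 lay apart higher and 1 lower, with a median of 0.17. Idh2, the mitochondrial NADP-dependent isocitrate dehydrogenase, differed by 0.65 (adjusted p = 0.154), and Pgd, of the pentose phosphate pathway, by −0.77 (adjusted p = 0.184 from limma). G6pdx, which opens that pathway, differed by 0.38 with overlapping genotypes.

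Of 12 tested partners and regulators of Nfe2l2, 1 lay apart higher and 2 lower, with a median of 0.03. Mafg, a small Maf partner, read 1.74, 2.06 and 2.15 and then 2.31, 2.52 and 2.48 (difference 0.45, adjusted p = 0.208 from limma). Its 3 further probes also lay apart higher, by 0.59 to 0.72. Nfe2l1, a relative of Nfe2l2, read −2.94, −3.72 and −3.57 and then −4.61, −4.36 and −4.53 (difference −1.09, adjusted p = 0.105 from limma). Keap1, Cul3 and Bach1, which restrain Nfe2l2 or compete with it, differed by 0.08, −0.03 and −0.04.

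Of 11 tested further Nfe2l2 target genes, 2 lay apart higher and 2 lower, with a median of 0.09. Hmox1, which degrades heme, read −3.01, −1.59 and −3.21 in P38α+/− erythroblasts and −4.67, −3.51 and −5.00 in P38α−/− erythroblasts. Within replicate pairs it differed by −1.66, −1.91 and −1.80, and the mean difference was −1.79 (adjusted p = 0.158 from limma, and 0.0462 with the block). Its second probe differed by −1.02 and lay apart as well. Cbr1, a carbonyl reductase, lay apart higher by 0.82 (adjusted p = 0.190 from limma). Nqo1 and Hmox1, both classic Nfe2l2 targets, lay apart in opposite directions in the same arrays. In the list of methionine sulfoxide reductases and selenoproteins, 0 of 7 tested genes lay apart, and the median was −0.13.

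**Figure D4:**
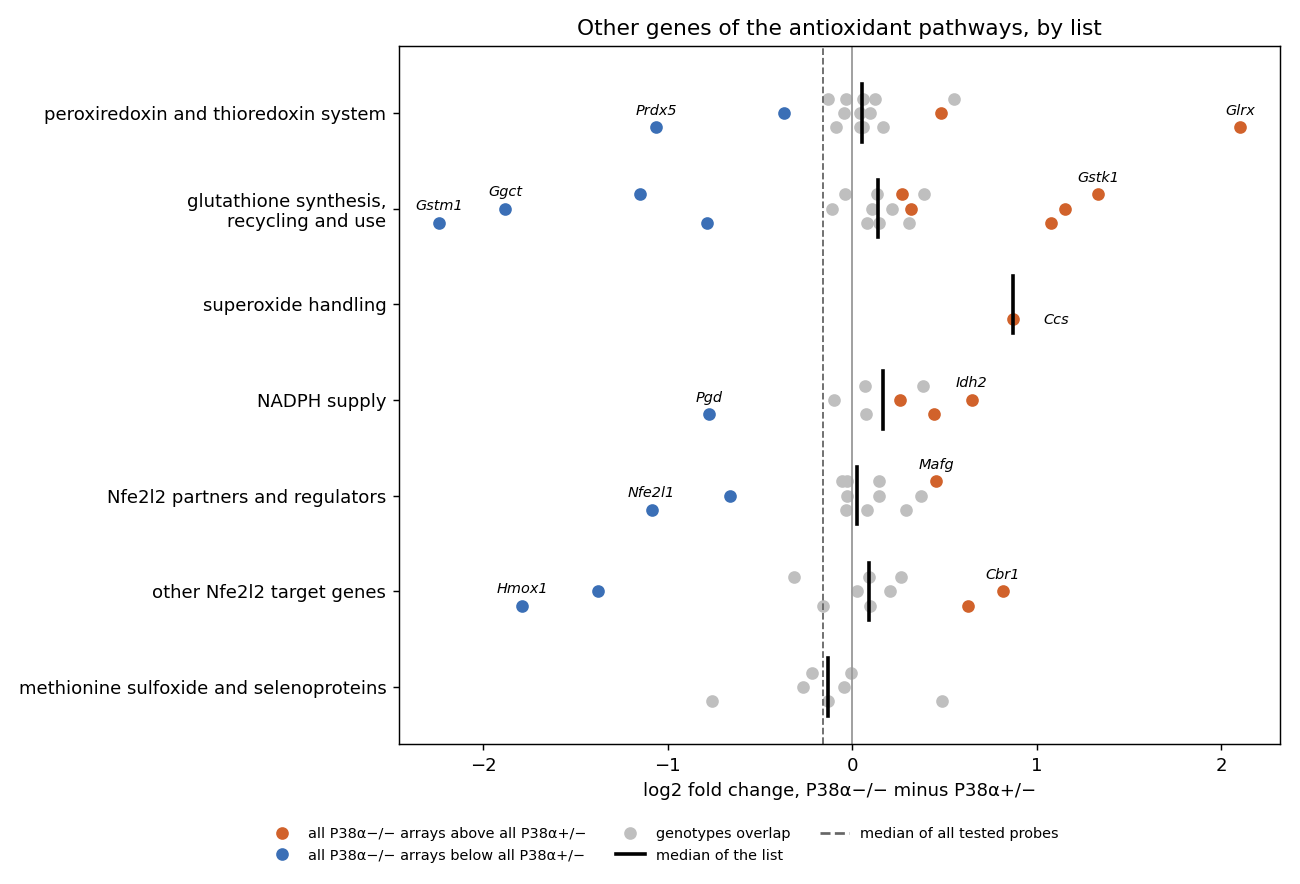
Log2 fold change, P38α−/− minus P38α+/− (horizontal axis), of the 73 tested pathway genes, 1 point per gene by its brightest tested probe, in 7 lists. Orange points are genes with all P38α−/− arrays above all P38α+/− arrays, blue points the reverse and grey points overlap; the genes named by rule are labelled, from Gstm1 at −2.24 to Glrx at 2.10.

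Summed markers of neutrophils, of monocytes or macrophages and of lymphocytes were lower on average in P38α−/− arrays, with overlapping genotypes for monocytes or macrophages and for B cells. The 12 neutrophil markers summed to 110.7 to 290.6 times the 75th percentile signal in P38α+/− arrays and 59.46 to 83.46 in P38α−/− arrays, with P38α+/− replicate 2 the highest. Of the lower pathway genes named by rule, Prdx5, Gstm1, Pgd and Hmox1 were highest in P38α+/− replicate 2. Nfe2l1 and Ggct were highest in P38α+/− replicate 1. Any gene lower without overlap must be highest in a P38α+/− array. How many of all such genes were highest in replicate 2 was not counted. Monocyte or macrophage markers (4 of 9 well above background on all arrays, Cd163 on none) summed to 0.675 to 1.59 and 0.438 to 0.866. B cell markers (1 of 8) summed to 0.1395 to 1.24 and 0.05755 to 0.192, and T or NK cell markers (3 of 8, Cd8a on no array) to 0.722 to 2.66 and 0.539 to 0.709. Their part in the lower pathway genes was not tested. Among the members, none was highest in P38α+/− replicate 2, and Gpx4, Sod2 and Nqo1 differed in the opposite direction to the neutrophil markers. Whether RNA of other cells changed the readings of the members was not tested either.

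For 9 members, all but Prdx1, the tested gene with the most similar profile over the 6 arrays was sought, as the smallest root mean square difference after each probe was centred on its own mean. For Gpx4 it was Nubp2, at 0.03 against a median of 0.49 over all genes, and for Nqo1 it was an array entry without a gene symbol, at 0.06 against 0.49. Sod2 was most like Uros, an enzyme of heme synthesis, at 0.06. For the remaining 6 these were Cnot2 (Prdx2), Teddm2 (Cat), Kctd14 (Gpx1), Cnpy2 (Sod1), Ska1 (Gclc) and Ssr1 (Nfe2l2), at 0.01 to 0.15. Over 6 arrays such likeness is a description, and members with a small spread lie close to many genes.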

How the data were processed

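RNA of sorted erythroblasts from 6 mice (10 ng each) was amplified, labeled with Cy3 and hybridised to 1 array per mouse. The deposited intensity of each spot is the processed signal of the authors' scanner software, Agilent Feature Extraction, from which the software had subtracted each array's own background; arrays had not been put on a common scale. A second deposited file holds normalized intensities, whose steps are not given in the sources used here; its column for P38α−/− replicate 2 follows that array's scanner signal less closely than the others do. No spot was saturated. Control spots and spots marked as outliers, in signal or local background, were left out. From each log2 signal the 75th percentile of its array was subtracted, computed from the 15150 probes that the scanner software called well above background on every array. Probes well above background on all 3 arrays of a genotype were tested (18547 probes of 14025 genes) with limma 3.58.1 in R 4.3.3 (two-sided). The fitting code was also checked on simulated data whose levels and spread came from these arrays. Genes are counted by their brightest tested probe. The number of arrays, 3 per genotype, limits the precision, and 0 columns were left unassigned.

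The members and gene lists were chosen with earlier results of these data known, as were the motif letters. Pathway genes named are those called and, per list, the largest positive and negative difference without overlap of the genotypes; the others named were picked after their values were seen. The series' design text groups the mice in pairs, while the methods' test is unpaired. Same-numbered arrays deviated together from their genotype means (correlations of 0.394, 0.241 and 0.391, with none above 0.0601 for other combinations), and the numbers were taken to pair the arrays. Deviations cancel within a genotype, so positive values for some combinations push the others down. A pairing of the mice was not told apart from shared array quality. The comparison without the block follows the study's methods. A "fold of at least" compares the mean of the brighter genotype with the dimmest signals well above background on the arrays of the other. Marker sums are linear signals over the markers of a cell type, and 1 further marker list is not reported here. Gene positions on mm9 are those in the array files, and promoter sequences are RefSeq's (GRCm38.p6). Fold changes were recomputed under 19 alternatives, of which keeping spots with marked local background was added after seeing the data.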

Additional observations from a re-analysis of the deposited data

How the results depend on the processing

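No member was called under any of the 19 alternatives (limma, or the methods' t-test). At an unadjusted p of at most 0.05 the methods' t-test gave 1 member, Nqo1, which was higher. At that level it gave 743 higher and 1574 lower of 14025 tested genes. Gpx4, Sod2 and Nqo1 kept their direction under all 19. Prdx2, Gclc and Nfe2l2 turned higher with the 75th percentile over all probes (0.46, 0.34 and 0.32) and with spike-in centring (0.33, 0.21 and 0.20). Gpx1 turned lower with array weights (−0.024). The leave-one-out differences ran from −0.087 to 0.013 for Prdx2 (0.0077 without P38α+/− replicate 1, 0.013 without P38α−/− replicate 2), from −0.18 to 0.18 for Gpx1 (−0.01 without P38α+/− replicate 2, −0.11 without replicate 3, −0.18 without P38α−/− replicate 1), and from −0.012 to 0.11 for Sod1 (−0.012 without P38α+/− replicate 3). They ran from −0.22 to 0.57 for Cat and from −0.26 to 0.0010 for Nfe2l2 (−0.22 and 0.0010 without P38α−/− replicate 1), and from −0.023 to 0.14 for Prdx1 (−0.023 without P38α−/− replicate 2). Keeping spots with marked local background, which was added after seeing the data, gave −0.0026 for Prdx1. The mean of a gene's probes gave 1.07 for Prdx1, because the spot left out makes P38α+/− replicate 3 the value of the dimmer probe alone. The cause of these reversals was not tested. Among the pathway genes, where 1 was called, 8 were called with the 75th percentile over all probes (Cbr1, Ccs, Ggct, Glrx, Gstk1, Gstm1, Gstp1 and Gstt1) and 4 with array weights (Ggct, Glrx, Gstk1 and Gstp1). With the replicate number as a block 2 were called, Glrx and Hmox1, and Ggct was lost (adjusted p = 0.0576 from limma); the block changed no further call among members and pathway genes. None was called with quantile normalization, spike-in centring, the normexp background, no filter, the filter on all 6 arrays, the authors' normalized values (0 each), the slide block (0), the methods' t-test (0) or on leaving out any 1 array (0 to 0). Since no other array shared the slide of P38α−/− replicate 3, the slide block is the same as leaving that array out. Prdx1's dimmer probe, Ggct, Gstk1 and Osgin1 read near background, where detection differed between arrays. So did Gstm1, Nfe2l1 and Hmox1 in P38α−/− erythroblasts. With the normexp background the differences of these 3 were −1.33, −0.52 and −1.08, and that of Gstk1 was 0.73.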
